A study of Mus musculus with 7 samples.

Results

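The 8 genes described here encode costimulatory, checkpoint and adhesion molecules of activated antigen-presenting cells: Cd80, Cd86, Icosl, Cd274, Cd40, Icam1, Cd83 and Cd74. They were taken by symbol from a table of 55417 genes, and all 8 were among the 13329 genes tested. RNA sequencing was done on RAW264.7, an established mouse macrophage-like cell line, carrying a short hairpin that lowers Dpep2, which encodes a membrane dipeptidase of leukotriene metabolism, or a non-targeting control hairpin. The 7 libraries formed 3 groups: shDpep2.968 (n = 2), shDpep2.759 (n = 2) and the control shNT (n = 3). Every group was the same cell line with a hairpin. The sources used here do not say whether each line was a pool or 1 clone, how long it had carried the hairpin or whether the cells were stimulated. The genes were chosen with their differences between hairpin and shNT libraries already known, so those differences are given as a description with their error. No p-value of a single gene is given for them, and counts past a threshold are printed only beside the share of all tested genes.

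A T cell that meets its antigen also reads other signals from the presenting cell. CD80 and CD86 bind CD28 and CTLA-4, ICOS ligand binds ICOS, and PD-L1, the product of Cd274, binds the inhibitory receptor PD-1. CD40 receives the signal of CD40 ligand, ICAM1 holds the cells together through beta-2 integrins, CD83 marks mature dendritic cells, and CD74 is the invariant chain that guides MHC class II molecules. In macrophages and dendritic cells, many of these molecules are known to be induced by microbial products and interferon.

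Total counts ran from 16548648 to 18401060 per library, which sets the counting precision, and levels are given as CPM, counts scaled to a common library size after TMM normalisation. Dpep2 itself stood at 22.4 and 17.9 CPM in the shDpep2.968 pair and at 24.9 and 19.5 CPM in the shDpep2.759 pair, below the shNT libraries at 55.6, 60.3 and 52.1 CPM. On the first principal component of all tested genes (38.5% of variance), shNT replicate 1 lay at 8.69 and shNT replicates 2 and 3 at 27.4 and 28.2. The hairpin libraries ran from -29.5 to -3.70 on it. On the second principal component (26.3% of variance), shDpep2.759 replicate 1 stood apart at -38.4, with the other libraries from -6.12 to 17.8. No label ties the replicates to separate cultures, so p-values reflect the spread between these libraries alone, and it may be technical.

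RefSeq promoter windows on GRCm38.p6, from 250 bases before to 50 bases after the start, were found for 4 of the 8 genes: Cd80, Icosl, Cd274 and Icam1. Cd86, Cd40, Cd83 and Cd74 had no matching entry. The stretches below are shown because 3 of these genes (Cd80, Cd274 and Icam1) were higher and the fourth (Icosl) lower in the hairpin libraries. Each is the 100 bases nearest the start that lie before it and outside the gene's own annotated GENCODE M21 exons. Exons of other genes were not checked. The stretch of Cd80 precedes a RefSeq start that lies within the annotated gene, downstream of the GENCODE start at chr16:38455561. The bases run 5′ to 3′ on the plus strand, with motif matches in capitals. They are chr16:38458833-38458932 for Cd80, chr10:78069202-78069301 for Icosl, chr19:29367338-29367437 for Cd274 and chr9:21015840-21015939 for Icam1.
Cd80: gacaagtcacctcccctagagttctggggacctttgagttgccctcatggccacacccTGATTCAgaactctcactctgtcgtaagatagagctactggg
Cd274: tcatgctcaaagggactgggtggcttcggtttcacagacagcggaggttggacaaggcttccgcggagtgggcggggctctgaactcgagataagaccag
Icam1: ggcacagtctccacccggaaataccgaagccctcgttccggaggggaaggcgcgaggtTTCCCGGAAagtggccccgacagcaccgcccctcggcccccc
Icosl: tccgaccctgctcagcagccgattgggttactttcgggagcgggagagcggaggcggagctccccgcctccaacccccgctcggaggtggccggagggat

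Over the full windows of 300 bases, both strands were searched for 4 motifs. The Cd80 window held 1 match to the AP-1 motif TGANTCA, from base -42 to base -36 relative to the start. The Icam1 window held 1 match to the GAS motif TTCNNNGAA, from base -42 to base -34. Neither match overlapped another motif. The Cd274 and Icosl windows held no match to either, and none of the 4 windows held the interferon-stimulated response element (ISRE) core or the NF-kB consensus. Of 32851 RefSeq windows of that length, 7.81% held TGANTCA, 8.3% TTCNNNGAA, 3.44% the ISRE core and 4.51% the NF-kB consensus. These are descriptions of the letters in the windows and not of any factor's binding.

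The 8 genes did not move as 1 block. Cd83, Cd274, Cd80 and Icam1 were higher in all 4 hairpin libraries than in any shNT library, and Icosl and Cd74 were lower in all 4. Cd40 and Cd86 had 3 of 4 hairpin libraries above every shNT library. For Cd86, 1 of these was level with the highest shNT library (2.362 against 2.356 CPM). Over all tested genes the hairpin and shNT libraries did not overlap for 18.5% (9.03% higher and 9.51% lower). With fewer libraries a gap is commoner: the libraries of shDpep2.968 did not overlap with shNT for 43.4% of tested genes, those of shDpep2.759 with shNT for 36.3%, and those of the hairpins with each other for 42.9%. The RNA came from whole cultures, in which fewer cells expressing a gene and less RNA per cell cannot be told apart.

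**Figure D1:**
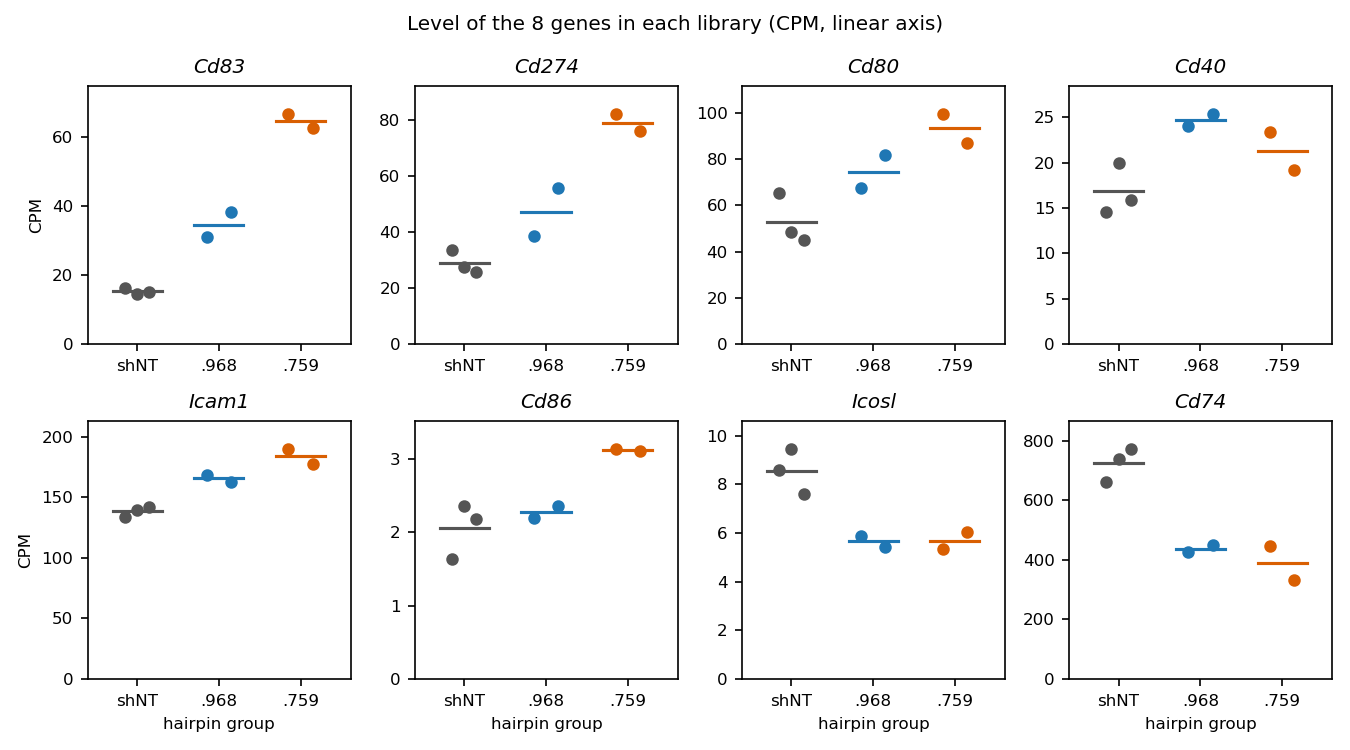
Level of each of the 8 genes (CPM, linear axis from 0) in each library, by hairpin group, with the hairpins against Dpep2 marked by their number. Points are libraries and bars are group means. Cd83 and Cd274 step up from shNT to shDpep2.968 to shDpep2.759, whereas Cd74 lies between 661 and 774 CPM with shNT and at or below 450 CPM in every hairpin library.

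Among the ligands of the B7 family, Cd80 stood at 65.4, 48.7 and 45.0 CPM in the 3 shNT libraries, at 67.5 and 81.7 CPM in the shDpep2.968 pair and at 99.7 and 87.0 CPM in the shDpep2.759 pair. The 3 groups did not overlap, although the highest shNT library and the lowest shDpep2.968 library were separated by only a small gap. The fold difference from shNT was 1.41 with shDpep2.968 (95% interval 1.11 to 1.79) and 1.76 with shDpep2.759 (1.39 to 2.24).

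Cd86, the other ligand of CD28, was the least abundant of the 8, with 297 counts over all libraries. It stood at 1.63, 2.36 and 2.18 CPM with shNT, at 2.20 and 2.36 CPM in the shDpep2.968 pair and at 3.14 and 3.10 CPM in the shDpep2.759 pair. The shDpep2.968 libraries lay in the upper part of the shNT range, 1 of them level with its top, and the shDpep2.759 libraries above it. The fold difference was 1.11 with shDpep2.968 (95% interval 0.728 to 1.68) and 1.51 with shDpep2.759 (1.01 to 2.27), so at this depth a change with shDpep2.968 was not detectable.

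Icosl, the ligand of ICOS, went the other way. It stood at 8.58, 9.48 and 7.60 CPM with shNT, at 5.90 and 5.41 CPM in the shDpep2.968 pair and at 5.33 and 6.03 CPM in the shDpep2.759 pair. All 4 hairpin libraries fell within a narrow band below the lowest shNT library, and the hairpins overlapped. Its level was 66.2% of shNT with shDpep2.968 (log2 fold change -0.60, SE 0.19) and 66.4% with shDpep2.759 (-0.59, SE 0.19).

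Cd274, encoding the checkpoint ligand PD-L1, stood at 33.5, 27.7 and 25.6 CPM with shNT, at 38.7 and 55.9 CPM in the shDpep2.968 pair and at 82.3 and 75.9 CPM in the shDpep2.759 pair. The 3 groups did not overlap, and the shDpep2.968 replicates lay further apart than those of the other groups. The fold difference was 1.64 with shDpep2.968 (95% interval 1.28 to 2.09) and 2.74 with shDpep2.759 (2.14 to 3.49). Without shDpep2.968 replicate 2, the log2 fold change with shDpep2.968 was 0.42 rather than 0.71.

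The balance between the checkpoint ligand and Cd80 can be read within a library, where library scaling cancels. Per kilobase of exon, the ratio of Cd274 to Cd80 was 0.523, 0.581 and 0.582 with shNT, 0.586 and 0.699 with shDpep2.968 and 0.843 and 0.892 with shDpep2.759. The shDpep2.759 libraries lay above the rest, and shDpep2.968 replicate 1 sat next to the shNT libraries.

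Cd40, the receptor through which helper T cells activate antigen-presenting cells, stood at 14.6, 19.997 and 15.9 CPM with shNT, at 24.0 and 25.4 CPM in the shDpep2.968 pair and at 23.4 and 19.2 CPM in the shDpep2.759 pair. Of the 6 genes with a higher mean in both hairpins, it was the one whose mean was higher with shDpep2.968 than with shDpep2.759. One shDpep2.759 library lay inside the shNT range. The fold difference was 1.47 with shDpep2.968 (95% interval 1.15 to 1.87) and 1.27 with shDpep2.759 (0.991 to 1.62).

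Cd83, an immunoglobulin-family surface protein that marks mature dendritic cells, showed the widest separation of the 8. It stood at 16.3, 14.5 and 15.1 CPM with shNT, at 31.0 and 38.1 CPM in the shDpep2.968 pair and at 66.6 and 62.4 CPM in the shDpep2.759 pair. No groups overlapped, and replicates within each group lay close together next to the steps between groups. The fold difference was 2.26 with shDpep2.968 (95% interval 1.84 to 2.78) and 4.23 with shDpep2.759 (3.45 to 5.18).

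Icam1, the adhesion ligand of the beta-2 integrins, moved by less but with little spread. It stood at 133, 140 and 142 CPM with shNT, at 169 and 163 CPM in the shDpep2.968 pair and at 190 and 178 CPM in the shDpep2.759 pair. The 3 groups did not overlap. The fold difference was 1.20 with shDpep2.968 (95% interval 1.01 to 1.42) and 1.33 with shDpep2.759 (1.13 to 1.57).

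Cd74, the invariant chain, was the most abundant of the 8 and was lower with both hairpins. It stood at 661, 739 and 774 CPM with shNT, at 425 and 450 CPM in the shDpep2.968 pair and at 446 and 332 CPM in the shDpep2.759 pair. Every hairpin library lay well below the lowest shNT library, and the hairpins overlapped. Its level was 60.4% of shNT with shDpep2.968 (log2 fold change -0.73, SE 0.15) and 53.7% with shDpep2.759 (-0.90, SE 0.15). Cd74 made up 70.7% to 75.3% of the summed CPM of the 8 genes in shNT libraries, 54.8% to 55.7% with shDpep2.968 and 43.5% to 48.7% with shDpep2.759. The other 7 genes summed to 253 to 273 CPM with shNT, 338 to 372 CPM with shDpep2.968 and 431 to 471 CPM with shDpep2.759.

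**Figure D2:**
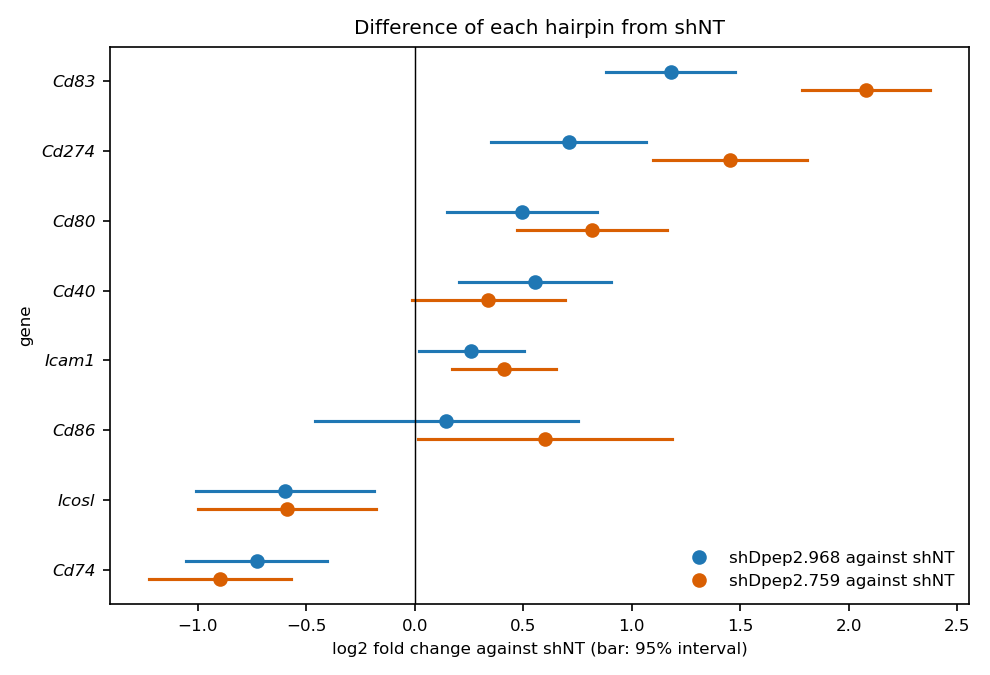
Log2 fold change of each hairpin against shNT for the 8 genes (points) with 95% intervals (bars) from the fit over all 7 libraries. Cd83 and Cd274 lie to the right and Icosl and Cd74 to the left of 0 with both hairpins. The 2 comparisons share the shNT libraries.

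In the fit across all genes, 6 of the 8 had an adjusted p under 0.05 when both hairpins were averaged against shNT: Cd83, Cd274, Cd80 and Icam1 higher and Icosl and Cd74 lower. The background is 7.59% of all tested genes (3.44% higher and 4.15% lower). Because the genes were chosen with this comparison known, nothing is read from that count or from their median log2 fold change. That median was 0.41, against 0.00253 over all tested genes. The count was 3 (Cd83, Cd274 and Cd74) without shNT replicate 2 or 3 or shDpep2.968 replicate 2. It was 4 (these and Cd80) without replicate 1 of any group, and 7 (Cd40 added to the 6) without shDpep2.759 replicate 2. With shDpep2.968 alone the count was 3 (Cd83, Cd274 and Cd74; background 5.25%). It was 1 (Cd83) without shNT replicate 2 or 3 or shDpep2.968 replicate 2, and 2 (Cd83 and Cd274) without shDpep2.968 replicate 1. Without shNT replicate 1 the shDpep2.968 count was 4, with Cd80 added. With shDpep2.759 alone the count was 4 (Cd83, Cd274, Cd80 and Cd74; background 4.73%), or 3 (without Cd80) when shNT replicate 2 or 3 was left out.

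The fold differences with shDpep2.759 were also computed without its replicate 1, which leaves a single library assumed to vary like the other groups. They were then 4.09 for Cd83, 2.62 for Cd274, 1.64 for Cd80, 1.504 for Cd86, 1.28 for Icam1 and 1.14 for Cd40, and 0.705 for Icosl and 0.457 for Cd74. All 8 kept their direction.

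Levels of different genes can be set side by side only per length, here as CPM per kilobase of the union of GENCODE M21 exons, an annotation that may differ from the one behind the counts. On GRCm38 (GENCODE M21), all 8 are protein-coding genes. Cd80 (chr16:38455561-38496335) and Cd86 (chr16:36603869-36666081, minus strand) share a chromosome. The others lie on the plus strand, Icosl at chr10:78069302-78083913, Cd274 at chr19:29367455-29388095, Cd40 at chr2:165055627-165072948, Icam1 at chr9:21015985-21028817, Cd83 at chr13:43784775-43803132 and Cd74 at chr18:60803848-60812652. In shNT libraries the order was Cd74 (432 CPM per kilobase), Icam1 (31.7), Cd80 (14.3), Cd274 (7.99), Cd83 (5.94), Cd40 (4.94), Icosl (1.85) and Cd86 (0.561). Of these neighbours, Cd83 and Cd40 overlapped between libraries and the others did not. With shDpep2.759 Cd83 stood at 25.1 CPM per kilobase and overlapped with Cd80 at 25.2, with Cd274 next at 21.8. With shDpep2.968 Cd83 (13.4) and Cd274 (13.1) overlapped, below Cd80 (20.1). Per kilobase, Cd80 exceeded Cd86 by 20.4 to 39.6 times in shNT libraries and by 27.7 to 34.2 times in hairpin libraries.

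**Figure D3:**
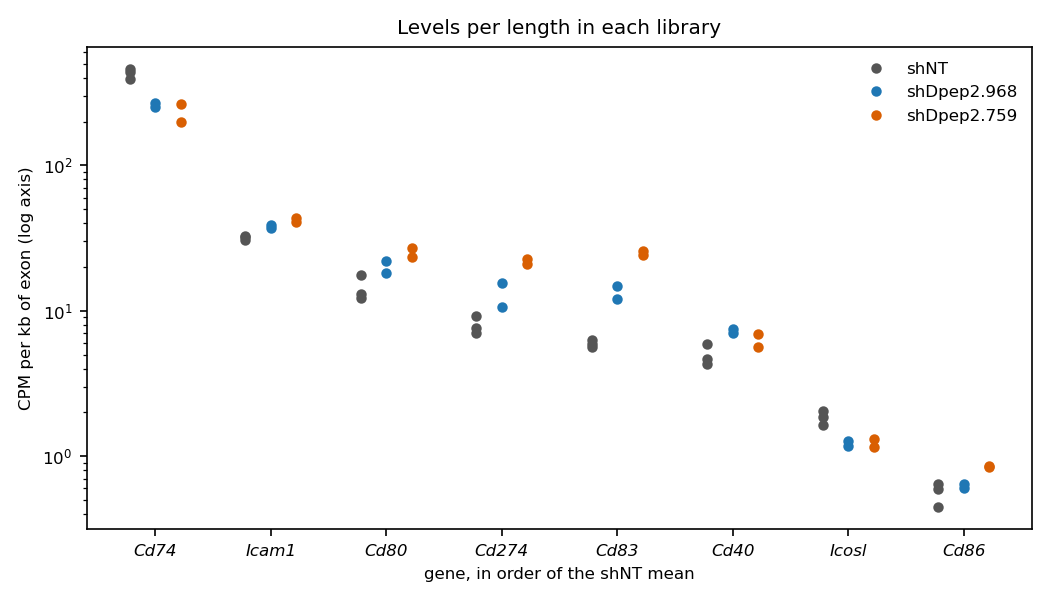
CPM per kilobase of exon on a log axis for the 8 genes in each library, coloured by group and ordered by the shNT mean. Cd74 stays above the other 7 genes in every library, and Cd83 moves from 5.94 with shNT to 25.1 with shDpep2.759, next to Cd80 at 25.2.

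The hairpins were then compared with each other, a difference to which no shNT library contributes, although all 7 libraries set the spread. Cd83 was 1.87-fold higher with shDpep2.759 than with shDpep2.968 (log2 fold change of shDpep2.968 against shDpep2.759 -0.90, SE 0.15, edgeR quasi-likelihood adjusted p = 0.0173). It was the only 1 of the 8 to pass, against 0.84% of all tested genes. The 8 genes were chosen with the differences of the hairpins from shNT known. The hairpin comparison is not independent of that choice, so its p-values for the 8 are description. The call was lost without shDpep2.968 replicate 1 (adjusted p = 0.105), shDpep2.968 replicate 2 (0.086), shDpep2.759 replicate 1 (0.0556) or shNT replicate 3 (0.0578), with log2 fold changes from -1.06 to -0.75 in those fits.

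Cd274 differed between the hairpins by -0.74 on the log2 scale (95% interval -1.13 to -0.35) and did not pass (edgeR adjusted p = 0.0791). It passed with DESeq2 (adjusted p = 0.0136) and, with edgeR, without shDpep2.759 replicate 2 (0.0295). The other 6 genes did not pass. Their intervals still allowed sizeable differences: -0.70 to 0.06 for Cd80, -1.10 to 0.19 for Cd86, -0.42 to 0.12 for Icam1 and -0.17 to 0.60 for Cd40. For Icosl the log2 difference was -0.0061 (-0.46 to 0.45) and for Cd74 it was 0.17 (-0.18 to 0.52). Dpep2 itself differed by -0.14 (-0.51 to 0.23).

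Other genes of the same pathways were taken from lists written with earlier results of these data known, so their counts past the threshold are description. The share of all tested genes past it was 7.59% in the averaged comparison, 5.25% with shDpep2.968, 4.73% with shDpep2.759 and 0.84% between the hairpins. Of 13 other ligands of the B7 and checkpoint type 8 were tested, and none passed in the averaged comparison by edgeR, DESeq2 or limma-voom (4 had an unadjusted edgeR p under 0.05). Their median log2 fold change was -0.26. Lgals9, encoding galectin-9, ran from 221 to 262 CPM with shNT, from 219 to 243 CPM with shDpep2.968 and from 279 to 359 CPM with shDpep2.759. Cd47, the signal that restrains engulfment, had a log2 fold change of 0.15. With shDpep2.968 alone the inhibitory ligand Vsir fell by 0.59 on the log2 scale (edgeR adjusted p = 0.0343) and the adhesion receptor Nectin2 by 0.80 (adjusted p = 0.0418), 2 genes named after their values were seen. Leaving out shNT replicate 2, shNT replicate 3 or any of the shDpep2.968 libraries ended both calls (adjusted p from 0.12 to 0.214). Neither passed with limma-voom (adjusted p 0.0512 for Vsir and 0.0697 for Nectin2), and the GC and length correction ended that of Nectin2 (0.0652). Pdcd1lg2, the other ligand of PD-1, reached at most 0.168 CPM in any library.

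Of 9 TNF-family costimulators 4 were tested, with a median averaged log2 fold change of 0.35. In the averaged comparison 1 rose, against 3.44% of all tested genes. Tnfsf13b, which encodes the B-cell survival factor BAFF, stood at 5.08, 4.44 and 4.53 CPM with shNT, 7.98 and 9.33 CPM in the shDpep2.968 pair and 5.33 and 6.62 CPM in the shDpep2.759 pair. The groups did not overlap, with shDpep2.968 highest. Its log2 fold change was 0.62 (SE 0.17, edgeR adjusted p = 0.0416). Of the 7 fits without 1 library, 6 lost the call (adjusted p from 0.0527 to 0.195), all except that without shDpep2.759 replicate 1. It was also lost with DESeq2 (adjusted p = 0.051) and limma-voom (0.0549).

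All 14 genes of CD40 signalling were tested, with a median averaged log2 fold change of 0.05. In the averaged comparison 1 rose and none fell, against 3.44% and 4.15% of all tested genes. The adaptor Traf1, an NF-kB target that binds CD40-associated TRAF2, stood at 36.0, 36.0 and 36.3 CPM with shNT, at 36.1 and 39.8 CPM in the shDpep2.968 pair and at 65.6 and 55.5 CPM in the shDpep2.759 pair. The shDpep2.759 libraries stood apart, and 1 shDpep2.968 library lay within the shNT range. Traf1 rose 1.68-fold with shDpep2.759 (log2 fold change 0.75, edgeR adjusted p = 0.00419), a call kept in every fit that left out a library, while with shDpep2.968 the log2 fold change was 0.07. Between the hairpins it differed by -0.67 (adjusted p = 0.0416), a call that 6 of the 7 fits without 1 library did not keep (adjusted p from 0.0657 to 0.254), all except that without shDpep2.759 replicate 2. It was also lost with limma-voom (0.0611). Its averaged log2 fold change was 0.41 (adjusted p = 0.0356), lost in 5 of those fits (0.0602 to 0.157), all except those without shDpep2.968 replicate 1 or shDpep2.759 replicate 2.

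Of 13 ICAM1 partners and adhesion molecules 11 were tested, with a median averaged log2 fold change of -0.08. In the averaged comparison 1 rose and 2 fell, against 3.44% and 4.15% of all tested genes. Itgax, the CD11c chain that pairs with beta-2 integrin, rose, at 2.60, 1.92 and 1.79 CPM with shNT, 8.27 and 7.66 CPM in the shDpep2.968 pair and 2.30 and 4.57 CPM in the shDpep2.759 pair. With shDpep2.968 both libraries were far above shNT, and 1 shDpep2.759 library lay inside the shNT range. Its averaged log2 fold change was 1.32 (SE 0.26, edgeR adjusted p = 0.00819), lost without shNT replicate 2 or 3 (adjusted p 0.0525 and 0.0685). The actin linker gene Ezr had a log2 fold change of -0.43 (adjusted p = 0.0209) and Icam5 of -0.78 (adjusted p = 0.0451). Leaving out shNT replicate 2, shNT replicate 3 or any of the shDpep2.968 libraries ended the call of Ezr (adjusted p from 0.052 to 0.128). Leaving out any of those 4 libraries or shDpep2.759 replicate 2 ended that of Icam5 (0.0518 to 0.216), as did limma-voom (0.0709). Itgal, Itgam and Itgb2, which form the receptors of ICAM1, had averaged log2 fold changes of 0.25, -0.20 and -0.17 and did not pass. With shDpep2.968 Itgam stood at 896 and 846 CPM, against 1097 to 1340 CPM with shNT and 1203 to 1363 CPM with shDpep2.759. Itgb2 stood at 370 and 334 CPM, against 428 to 508 CPM and 457 to 526 CPM. DESeq2 called both lower with shDpep2.968 than with shNT or shDpep2.759, whereas edgeR and limma-voom called neither.

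Cd74 works with MHC class II, and of 23 class II genes and CD74 partners 15 were tested (median averaged log2 fold change -0.05). In the averaged comparison none rose and 2 fell, against 3.44% and 4.15% of all tested genes. The chains of the classical class II molecule had few counts. H2-Aa had at most 4 counts in any library. Ciita, the master regulator of class II genes, had 3 counts in shDpep2.968 replicate 1 and 0 in the other 6 libraries, where a count of 0 allows at most 0.164 to 0.181 CPM (counting error only). H2-Ab1 ran from 0.230 to 1.10 CPM over all libraries. The 2 that fell encode the chains of the H2-O molecule, a modulator of peptide loading. H2-Ob stood at 2.60, 2.52 and 2.40 CPM with shNT, 0.809 and 0.403 CPM in the shDpep2.968 pair and 1.57 and 0.703 CPM in the shDpep2.759 pair. Its hairpin libraries all lay below shNT. H2-Ob fell by 1.58 on the log2 scale (SE 0.33, edgeR adjusted p = 0.0114), lost without shNT replicate 2 or 3 or shDpep2.968 replicate 2 (adjusted p from 0.0501 to 0.0539). H2-Oa had a log2 fold change of -1.33 (adjusted p = 0.0497), a call that 5 of the 7 fits without 1 library did not keep (0.0616 to 0.189), all except those without shDpep2.968 replicate 1 or shDpep2.759 replicate 1. It was also lost with DESeq2 (0.0668). The proteases Ctss and Ctsl, which process the invariant chain, had averaged log2 fold changes of 0.33 and -0.15. Mif, a ligand of CD74, had 0.02, and none of them was past the threshold. Ctsl stood at 1413 and 1428 CPM with shDpep2.968, 1946 to 2113 CPM with shNT and 1912 to 2771 CPM with shDpep2.759. DESeq2 called Ctsl lower with shDpep2.968 than with shNT or shDpep2.759, whereas edgeR and limma-voom did not.

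**Figure D4:**
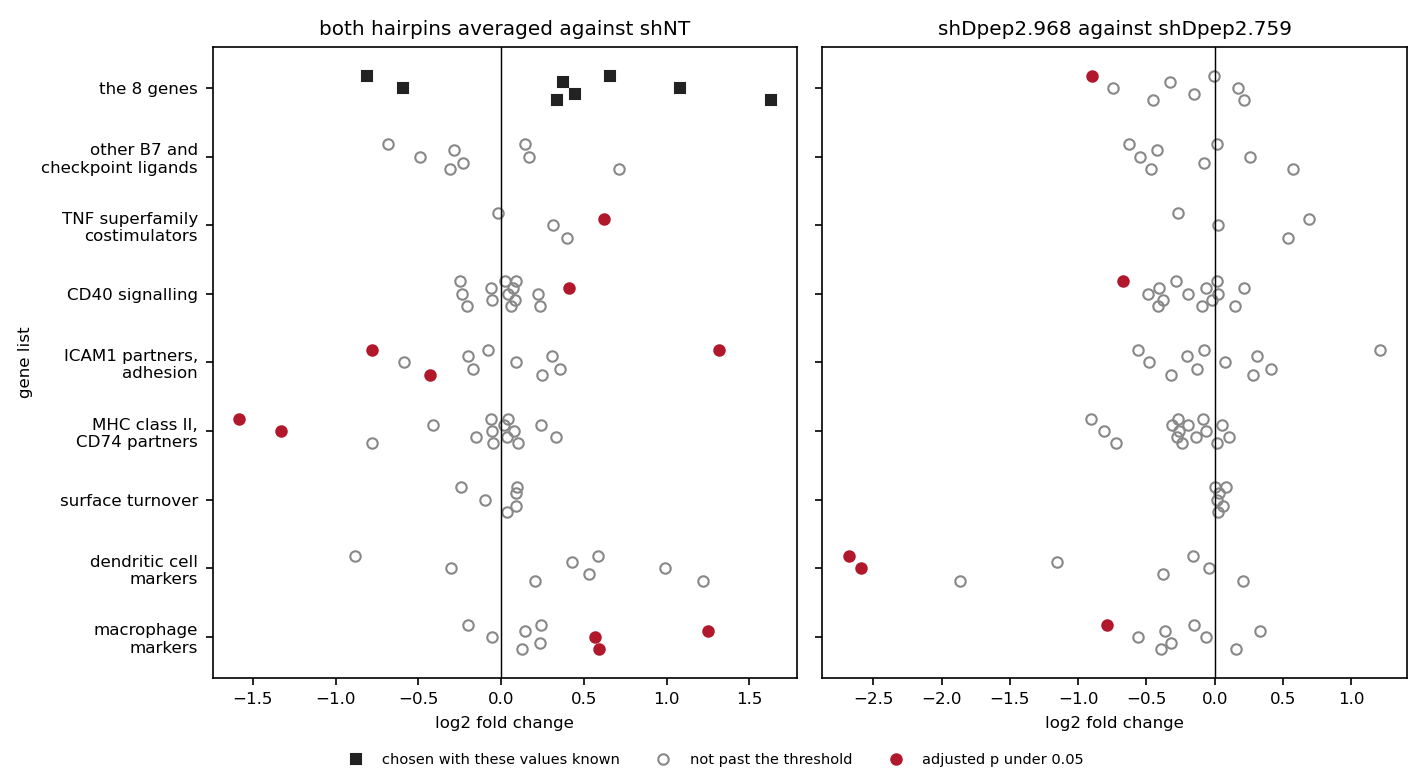
Log2 fold change of every tested gene of each list shown, for both hairpins averaged against shNT (left) and shDpep2.968 against shDpep2.759 (right). The lists of T-cell receptors and of lymphocyte, neutrophil, and stromal and epithelial markers are not shown. Filled red points have an adjusted p under 0.05, open points do not, and black squares are the 8 genes in the comparison they were chosen on. On the right, Ccr7 and Ccl22 lie at -2.68 and -2.59.

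The label dendritic-like was set against dendritic cell markers. Of 16 such markers 8 were tested, and none passed in the averaged comparison by edgeR, DESeq2 or limma-voom (4 had an unadjusted edgeR p under 0.05). Their summed level ran from 126 to 148 CPM with shNT, 113 to 115 CPM with shDpep2.968 and 124 to 148 CPM with shDpep2.759, most of it Irf8. Cd209a and Lamp3 had 0 counts in every library. Flt3, Clec9a and Batf3 stayed at or below 0.117 CPM, and Zbtb46 at or below 1.04 CPM. Itgax, whose product CD11c also serves as a dendritic cell marker, was placed with the ICAM1 partners and is not among the 16. Itgax rose in the averaged comparison (log2 fold change 1.32, edgeR adjusted p = 0.00819). With shDpep2.968 alone it rose by 1.92 (edgeR adjusted p = 0.00298, kept in all 15 alternatives), while 1 shDpep2.759 library lay inside the shNT range. With shDpep2.759 alone 2 of the 8 tested markers rose, Ccl22 and Ccr7 (4.73% of all tested genes passed in either direction). The median log2 fold change of the list with shDpep2.759 was 0.61, against 0.0033 over all tested genes. It was -0.03 with shDpep2.968 and 0.48 in the averaged comparison. The 8 genes are called by their symbols here.

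These 2 genes, linked to migrating and mature dendritic cells, also differed between the hairpins, and are described after their values were seen. Ccl22, a chemokine for CCR4-bearing T cells, stood at 5.68, 3.89 and 3.91 CPM with shNT, 2.25 and 3.23 CPM in the shDpep2.968 pair and 18.5 and 14.6 CPM in the shDpep2.759 pair. The shDpep2.759 libraries were the highest and the shDpep2.968 libraries the lowest. Against shNT, Ccl22 rose with shDpep2.759 by a log2 fold change of 1.88 (SE 0.22, edgeR adjusted p = 0.000426). The log2 fold change of shDpep2.968 against shDpep2.759 was -2.59 (edgeR adjusted p = 0.00157), kept in every fit that left out a library. Ccr7, the lymph-node homing receptor, stood at 0.725, 0.384 and 0.503 CPM with shNT, 0.636 and 0.346 CPM in the shDpep2.968 pair and 3.14 and 3.22 CPM in the shDpep2.759 pair. Ccr7 rose with shDpep2.759 against shNT by a log2 fold change of 2.56 (SE 0.38, edgeR adjusted p = 0.00232). Both calls against shNT were kept in all 15 alternatives. It differed by -2.68 between the hairpins (adjusted p = 0.0173), lost without shDpep2.968 replicate 1, shDpep2.968 replicate 2 or shDpep2.759 replicate 1 (0.0648 to 0.213).

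Of 11 macrophage markers 9 were tested. Their summed level ran from 14192 to 15593 CPM with shNT, 14828 to 14877 CPM with shDpep2.968 and 16727 to 20501 CPM with shDpep2.759. Most of that sum was Lyz2, at 8817 to 9794 CPM with shNT, 9331 to 9645 CPM with shDpep2.968 and 10850 to 14050 CPM with shDpep2.759. Cd163 had 0 counts in every library, and Mertk stayed at or below 0.347 CPM. In the averaged comparison 3 of the 9 tested rose and none fell, against 3.44% and 4.15% of all tested genes. Adgre1, encoding F4/80, rose by a log2 fold change of 0.57 (edgeR adjusted p = 0.00397). It stood at 128 to 141 CPM with shNT, 145 and 155 CPM in the shDpep2.968 pair and 252 and 265 CPM in the shDpep2.759 pair. Against shNT Adgre1 passed with shDpep2.759 alone (log2 fold change 0.96) and not with shDpep2.968 alone. The high-affinity Fc receptor gene Fcgr1 rose by 0.59 (adjusted p = 0.0161) and the mannose receptor gene Mrc1 by 1.25 from an shNT mean of 0.645 CPM (adjusted p = 0.036). The Fcgr1 call was lost without shNT replicate 2 or 3 or shDpep2.968 replicate 2 (adjusted p from 0.0562 to 0.119), and that of Mrc1 in all such fits except that without shDpep2.759 replicate 2 (0.0549 to 0.167) and with DESeq2 (0.0742). Like Cd83, Adgre1 was higher with shDpep2.759 than with shDpep2.968 (log2 fold change of shDpep2.968 against shDpep2.759 -0.79, adjusted p = 0.0164), which was lost on leaving out shNT replicate 3 or any of the shDpep2.968 libraries (0.0584 to 0.148).

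Markers of lymphocytes and of stromal and epithelial cells were low. The 10 T and B lymphocyte markers summed to at most 4.10 CPM in any library, with Cd3e and Cd3g among those at 0, and the 11 stromal and epithelial markers to at most 6.502 CPM, with Col1a2, Epcam and Krt18 at 0. The 7 neutrophil markers summed to 17.3 to 33.7 CPM with shNT, 34.2 to 50.3 CPM with shDpep2.968 and 99.985 to 237 CPM with shDpep2.759. Nearly all of that sum was S100a8, at 99.8 and 236 CPM in the shDpep2.759 libraries, with Ly6g and Ltf at 0 in every library and S100a9 at or below 0.604 CPM. The neutrophil sum thus moved in the same order of groups as Cd83 and Cd274. S100a8 had a log2 fold change of 2.88 with shDpep2.759 and did not pass with edgeR (adjusted p = 0.0587), whereas DESeq2 and limma-voom called it. Its part in the differences of Cd83 and Cd274 was not tested.

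Across all tested genes, which are not independent of each other, GC content and the averaged log2 fold change had a Spearman correlation of -0.251. The 8 genes spanned 42.7% GC in Cd80 to 56.6% in Cd74, and Icam1 at 55.4% was among the higher genes. After a GC and length correction, chosen after seeing the data, the averaged log2 fold changes ran between -0.74 for Cd74 and 1.65 for Cd83, and none of the 8 changed sign.

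For each of the 8, the 3 genes whose log2 CPM was most alike over the 7 libraries were found among 9510 genes with a mean of at least 5 CPM. This likeness is a description over 7 libraries that share their groups. For Cd83 they were Zfp811 (Pearson r 0.992), Cyp4v3 (0.988) and Csf2rb2 (0.987). For Cd274 they were Edn1 (0.993), Clec4a1 (0.991) and Zbp1 (0.986), and for Cd80 they were Pdpn (0.997), Mpeg1 (0.996) and Il33 (0.995). Icam1 was most like Cdc42se1 (0.993), Caml (0.991) and Parp10 (0.989), and Cd86 most like Grn (0.991), Oas1c (0.979) and Ggact (0.961). Cd40 had lower values, with Mrps18a (0.976), Vapb (0.966) and Rnf41 (0.961). Of the lower genes, Cd74 was most like Txnip (0.996), Kank2 (0.991) and Ezr (0.989), and Icosl most like Myo1d (0.986), Dclre1a (0.986) and Usp22 (0.979). Among the 8 themselves, r was 0.978 between Cd83 and Cd274, 0.824 between Icosl and Cd74, 0.531 between Cd40 and Cd274 and -0.914 between Cd83 and Cd74.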

How the data were processed

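RNA of 7 RAW264.7 libraries was sequenced as strand-marked total RNA read in pairs, per the labels' protocols. The analysis began from 1 table of whole-number counts per mouse gene symbol, deposited by the authors. Trim Galore, Salmon and hg38, a human build, are named without versions or roles per the submitters' processing notes. The sources used here do not give the annotation or strand setting. If the values are rounded Salmon estimates, a model divided the reads that similar genes share.

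Groups came from the sample titles. In edgeR 4.0.16 under R 4.3.3, genes passing filterByExpr were normalised by TMM, and a robust quasi-likelihood model with a mean for each group was fitted to all libraries (4 residual degrees of freedom). P-values were adjusted by Benjamini-Hochberg over all tested genes, with a threshold of 0.05. Within groups, libraries differed beyond counting error (chi-square divided by its degrees of freedom from 14.9 to 43.4).

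The members and gene lists were chosen with earlier results of these data known. The rule named the 8 members, Dpep2, the 3 genes most alike to each member on log2(CPM + 0.5), and from each pathway list up to 4 genes past the threshold in the averaged comparison, by smallest p, or else the 2 with the highest mean CPM as values. Other list genes were named for their role after their values were seen. Promoter windows came from RefSeq (GRCm38.p6). Exon lengths and GC came from GENCODE M21, with values for 95.7% of tested genes.

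The alternatives changed the size factors, the low-count filter or the test (DESeq2 1.42.0, limma-voom with limma 3.58.1), added a replicate block, or left out 1 library. A GC and length correction, and all alternatives for pathway and marker genes, were added after seeing the data.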

Additional observations from a re-analysis of the deposited data

Results flagged for a closer look

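Cd83 was flagged because the effects of the hairpins on it differed in a test of the difference itself. The log2 fold change of shDpep2.968 against shDpep2.759 was -0.90 (95% interval -1.22 to -0.58, edgeR adjusted p = 0.0173), with both shDpep2.759 libraries (66.6 and 62.4 CPM) above both shDpep2.968 libraries (31.0 and 38.1 CPM). Over its 15 alternatives the adjusted p ran from 1.79e-05 to 0.105. Dpep2 itself differed between the hairpins by -0.14 (95% interval -0.51 to 0.23).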

How the results depend on the processing

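The direction and the side of the threshold were kept in 417 of 480 combinations of gene, comparison and alternative for the 8 genes. A call was lost in 36, gained in 18, and the sign turned in 9, all between the hairpins and none past the threshold: Icosl (-0.0061 with the reported settings) at 0.0037 with DESeq2 size factors, 0.023 with library size alone, 0.0038 with DESeq2 and 0.056 with the GC and length correction. Leaving out 1 library gave -0.092 to 0.093 for Icosl, above 0 in 4 of 7 fits, and -0.021 to 0.40 for Cd74, below 0 only without shDpep2.759 replicate 2. Such fits called 3 to 7 of the 8 genes in the averaged comparison, 1 to 4 with shDpep2.968, 3 to 4 with shDpep2.759 and 0 to 2 between the hairpins. The same fits gave 321 to 1468, 69 to 1309, 253 to 768 and 6 to 1070 of all genes, against 1012, 700, 630 and 112 with all libraries.

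With no low-count filter all-gene counts were 1590 averaged, 1443 with shDpep2.968, 1131 with shDpep2.759 and 669 between the hairpins, and 5 of the 8 genes passed with shDpep2.968 and 2 between the hairpins. The GC and length correction gave 2019, 1604, 1582 and 527 genes, with 5 of the 8 with shDpep2.968 and 2 between the hairpins. Between the hairpins, DESeq2 gave 376 genes and 2 of the 8, and limma-voom 54 genes. The causes of these shifts were not tested. With the replicate number as a block, in which shNT replicate 3 carries no information, 404, 308 and 312 genes passed against shNT and 130 between the hairpins. Of the 8, 3 passed in the averaged comparison under the block, 1 with shDpep2.968, 4 with shDpep2.759 and 1 between the hairpins. The block also ended the averaged calls of Tnfsf13b, Traf1, Icam5, Ezr, H2-Oa, Adgre1, Fcgr1 and Mrc1 (adjusted p from 0.065 to 0.274), those of Vsir and Nectin2 with shDpep2.968 and that of Traf1 between the hairpins. Samples share only a number. After each group's mean log2 CPM was subtracted, what remained in same-numbered libraries correlated at 0.098 between the hairpins. Between hairpin and shNT libraries it correlated at -0.285 to -0.211. In a group of 2 these remainders mirror each other, so different-numbered pairs of the hairpins stood at -0.098 by construction. The low counts of Cd86 limit what could be detected for it.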

Other observations

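The receptors that read these ligands on T cells were also in the table. Pdcd1, encoding PD-1, was detected in every library, at 26.3, 29.0 and 27.0 CPM with shNT, 27.4 and 24.5 CPM with shDpep2.968 and 28.3 and 20.4 CPM with shDpep2.759. Of 5 such receptors 3 were tested and none passed by edgeR, DESeq2 or limma-voom in the averaged comparison (1 had an unadjusted edgeR p under 0.05). The groups of Pdcd1 overlapped, and its averaged log2 fold change was -0.12 (95% interval -0.41 to 0.16, edgeR adjusted p = 0.613). Icos ran from 0.505 to 1.32 CPM over the libraries. Cd28 had at most 14 counts in a library, Ctla4 had 1 count in all and Cd40lg had 0.

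Genes that set how long CD86, MHC class II and PD-L1 stay at the surface formed another list. Of the 7 genes found, 6 were tested and none passed in any comparison by edgeR, DESeq2 or limma-voom, with 1 at an unadjusted edgeR p under 0.05 in the averaged comparison. Cd9 ran from 335 to 340 CPM with shNT and from 257 to 303 CPM in hairpin libraries, and Adam17, a sheddase, had a log2 fold change of 0.10. Cmtm6, which keeps PD-L1 at the surface, had a log2 fold change of 0.03 while Cd274 was at 1.08.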
